A study of Mus musculus with 12 samples.

Results

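The genes described here are 10 genes that mark lipid-laden macrophages or encode the lysosomal proteases abundant in them, namely Trem2, Apoe, Gpnmb, Spp1, Lgals3, Cd9, Fabp5, Ctsb, Ctsd and Ctsl. They were taken by gene symbol, and all 10 were found among the 23282 genes of the count table. The RNA came from whole subcutaneous tumors of MC38, a mouse colon adenocarcinoma line, grown in the flank of wild-type female C57BL/6 mice injected at 6 weeks of age, so that every group shared the same host, cell line and site. The labels place each tumor at day 19 and in one of 4 groups of 3 tumors. Control mice (Con) were given the saline vehicle of SFIH and an IgG2a antibody. SFIH mice were given the same IgG2a antibody. They also received SFIH, a fraction of the medicinal plant Inula helenium that is rich in sesquiterpene lactones, by daily intraperitoneal injection at 50 mg/kg. PD mice were given an antibody against PD-1, an inhibitory receptor of T cells, at 200 μg per injection, and the combined group (Comb) was given both agents. The study asked whether SFIH enhances the antitumor effect of the antibody, and the 10 genes bear on the macrophages that the tumors held.

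Macrophages that take up much lipid, from dying cells or lipoproteins, acquire a recognizable set of transcripts. The receptor Trem2 binds lipids and apolipoproteins at the cell surface and signals through the adaptor Tyrobp, and the cell stores, exports and degrades its load with fatty acid binding proteins, apolipoprotein E and lysosomal enzymes. In tumors such cells are usually counted among the macrophages that restrain T cells. None of the 10 genes belongs to macrophages alone. Spp1, Lgals3, Cd9, Fabp5 and the cathepsins are also made by many carcinoma cells, Apoe and Fabp5 by adipose tissue, and Gpnmb by osteoclasts and melanocytes.

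The 12 libraries held 7870741 to 12261032 counts each, and levels are given below as CPM, a gene's count divided by the library's total and scaled to a total of 1000000. Comb replicate 3 stood apart from the other 11 tumors. Its 8 skeletal muscle markers summed to 6163 CPM and its 6 keratinocyte markers to 319 CPM, against at most 718 CPM and 31.2 CPM in any other tumor. Comb replicate 3 also had the fewest genes with a count, 14503 against 15564 or more in the other tumors. The differences of Comb from the other groups are therefore also given without it. The share of counts from ribosomal RNA (Rn45s) ran from 4.28% to 17.1%. It was 17.1% in PD replicate 2, 14.1% in Comb replicate 2 and 5.56% in Comb replicate 3. The labels call the material tumor cells. The 7 epithelial markers of carcinoma cells (Epcam, keratins, cadherin 1 and villin) summed to 4.604 to 22.2 CPM in 11 tumors and to 88.0 CPM in Comb replicate 3. No culture of MC38 was among the samples, so these sums do not tell how many tumor cells a sample held.

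Trem2, the lipid receptor itself, was counted at 14.0, 6.55 and 11.9 CPM in the 3 Con tumors and at 11.3, 10.6 and 10.8 CPM in the 3 SFIH tumors. The PD tumors held 11.5, 26.9 and 18.7 CPM, and the Comb tumors 7.43, 41.7 and 216 CPM. Comb replicates 2 and 3 were above all other tumors, whereas Comb replicate 1 was second from the bottom, so the Comb group overlapped each of the other groups. Behind these levels lay 75, 410 and 2369 reads in the Comb tumors and 63 to 153 in the Con tumors. On the log2 scale of the model, Comb was higher than Con by 3.48 (SE 0.97, n = 3 against 3, edgeR quasi-likelihood test, Benjamini-Hochberg adjusted p = 0.0733), which did not pass the threshold of 0.05. Without Comb replicate 3 the difference was 1.42 (SE 0.60, adjusted p = 0.231). In bulk tissue, more cells of a type and more RNA per cell cannot be told apart, for this gene and for all that follow.

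Apoe, the apolipoprotein that carries lipid out of macrophages and is a ligand of Trem2, was the only gene of the 10 whose PD tumors all exceeded the Con tumors. Its level was 489, 303 and 563 CPM in Con and 379, 571 and 531 CPM in SFIH. In PD it was 669.7, 1900.2 and 1388 CPM, the lowest of them still above the highest Con tumor at 563 CPM. In Comb it was 497, 3587 and 7821 CPM, with replicates 2 and 3 above every other tumor and replicate 1 inside the range of Con. Comb was higher than Con by 3.55 log2 units (SE 0.84, edgeR adjusted p = 0.0665) and by 2.43 (SE 0.66, adjusted p = 0.112) without Comb replicate 3. PD was higher than Con by 1.67 (SE 0.78, unadjusted p = 0.0548, edgeR adjusted p = 0.9998).

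Fabp5, a fatty acid binding protein of the cytosol, was highest in Comb replicates 3 and 2, as Apoe was, but varied widely within the single-agent groups. Con tumors held 88.4, 53.9 and 65.8 CPM and SFIH tumors 103, 36.6 and 51.0 CPM. PD tumors held 32.9, 192 and 57.8 CPM and Comb tumors 36.3, 214 and 691 CPM. The high PD tumor, replicate 2, set the sign of that group: PD was higher than Con by 0.59 (SE 0.92) on the log2 scale with it and lower by 0.57 without it. The log2 difference of Comb over Con was 2.60 (SE 0.97, edgeR adjusted p = 0.133), and 1.09 (SE 0.78, adjusted p = 0.487) without Comb replicate 3. An annotated pseudogene of Fabp5 could share its reads, and how the counting treated such reads is not given in the sources used here.

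**Figure D1:**
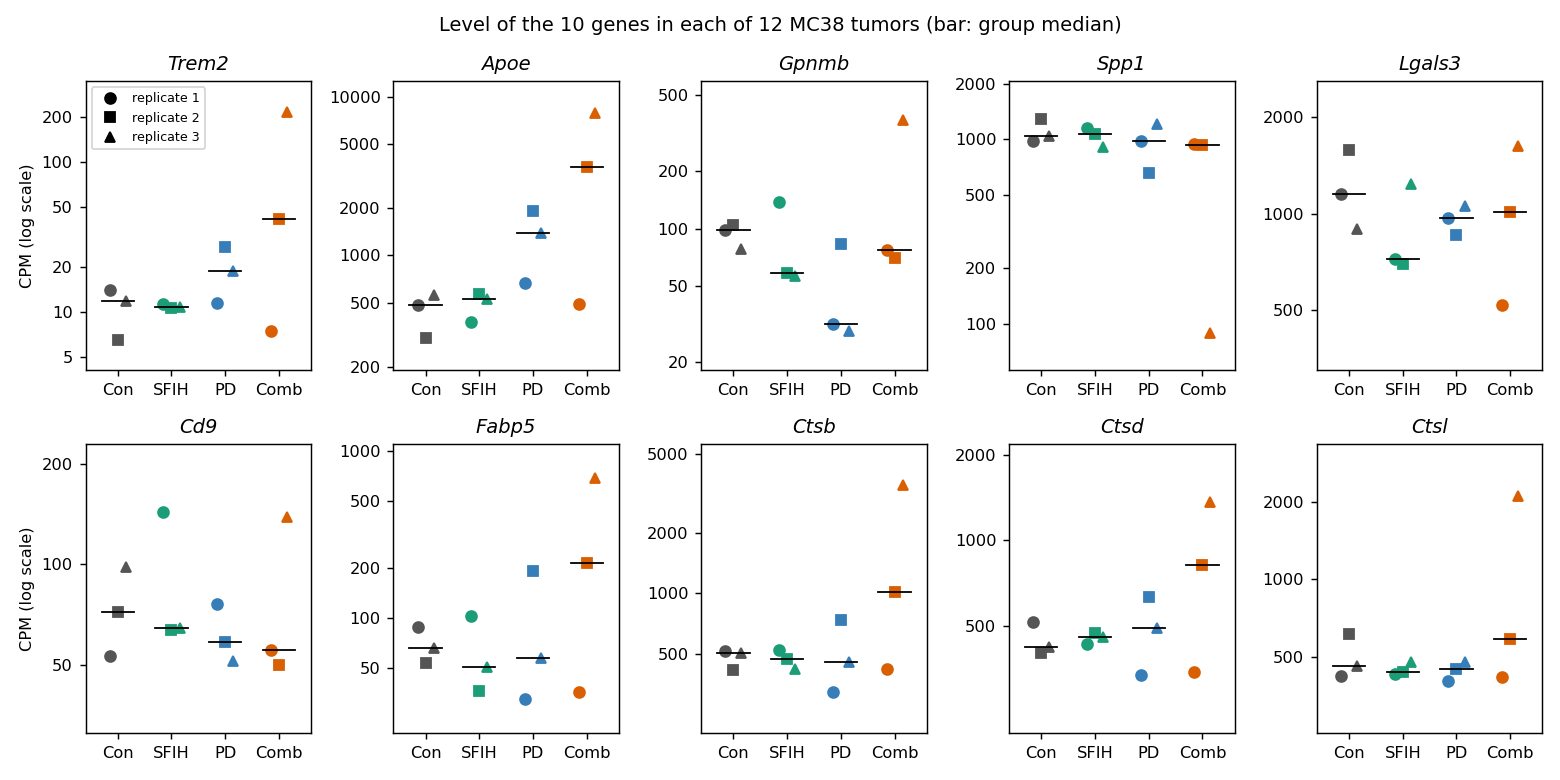
Level of each of the 10 genes in CPM (log axis, scaled separately for each gene) in the 12 tumors by group, with a symbol per replicate number and a bar at the group median. Comb replicate 3 (orange triangle) was the highest tumor for 8 of the 10 genes and the lowest for Spp1, Comb replicate 2 was above all non-Comb tumors for 5 genes, and Comb replicate 1 was above them for none.

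Gpnmb is a glycoprotein of the macrophage surface and lysosome that appears on lipid-laden cells. Its level was 98.4, 104 and 78.1 CPM in Con, 138, 58.4 and 56.4 CPM in SFIH, 31.4, 83.0 and 28.9 CPM in PD, and 77.5, 70.3 and 372 CPM in Comb. Only Comb replicate 3 was above the range of the other tumors, and the lowest values were those of PD replicates 1 and 3. Comb was accordingly higher than PD by 2.13 log2 units (SE 0.73, edgeR adjusted p = 0.243) and than Con by 1.29 (SE 0.71, adjusted p = 0.274), but without Comb replicate 3 these differences were 0.67 (SE 0.47) and -0.18 (SE 0.47). PD was lower than Con by 0.84 log2 units (SE 0.71, adjusted p = 0.9998).

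Cd9, a tetraspanin that organizes membrane proteins, showed no order of groups. Con held 53.0, 71.9 and 98.5 CPM, SFIH 144, 63.6 and 64.5 CPM, PD 75.9, 58.4 and 51.4 CPM, and Comb 55.4, 50.0 and 139 CPM. The highest values were those of SFIH replicate 1 and Comb replicate 3, the lowest was that of Comb replicate 2, and all 4 groups overlapped. The log2 difference of Comb over Con was 0.50 (SE 0.47, edgeR adjusted p = 0.502) and -0.32 without Comb replicate 3, and SFIH differed from Con by 0.27 (SE 0.47).

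Spp1, which encodes the secreted ligand osteopontin, went the other way. Its level was 985, 1298 and 1049 CPM in Con, 1161, 1066 and 906 CPM in SFIH, 982, 660.4 and 1209 CPM in PD, and 941, 929 and 89.4 CPM in Comb. All tumors but 1 lay between 660.4 and 1298 CPM, and Comb replicate 3, the highest tumor for 8 of the other genes, was the exception. The Comb tumors all lay below the Con tumors in CPM, although no longer after scaling by the trimmed mean of M-values (TMM). The log2 difference of Comb from Con was -0.58 (SE 0.56, edgeR adjusted p = 0.505) and -0.08 (SE 0.20) without Comb replicate 3.

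Lgals3, which encodes galectin-3, a lectin long used as a macrophage antigen (Mac-2), varied within the groups as much as between them. It was counted at 1149, 1588 and 896 CPM in Con, 722, 697 and 1242 CPM in SFIH, 968, 857 and 1057 CPM in PD, and 519, 1011 and 1625 CPM in Comb. The lowest and the highest of the 12 values both belonged to Comb. The log2 difference of Comb from Con was 0.14 (SE 0.46, edgeR adjusted p = 0.847) and was -0.20 under scaling by library size alone. SFIH was lower than Con by 0.44 log2 units (SE 0.46, adjusted p = 0.9998), the widest gap of any of the 10 genes in that comparison.

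Of the 10 genes, 3 encode lysosomal proteases. Ctsb, a cysteine protease, was counted at 515, 415 and 505 CPM in Con, 523, 470.3 and 419 CPM in SFIH, 321, 735 and 452 CPM in PD, and 420.2, 1012 and 3504.5 CPM in Comb. Ctsd, the aspartic protease of the lysosome, was at 516, 399 and 421 CPM in Con, 430.3, 469.5 and 455 CPM in SFIH, 335, 632 and 489 CPM in PD, and 343, 817 and 1369 CPM in Comb. For both enzymes Comb replicates 2 and 3 lay above all non-Comb tumors while Comb replicate 1 lay among the low ones. Ctsl, a second cysteine protease, was at 419.7, 610 and 458 CPM in Con, 429, 435 and 475 CPM in SFIH, 404, 447 and 478 CPM in PD, and 415, 588 and 2109.8 CPM in Comb, so that only Comb replicate 3 stood out. Comb was higher than Con by 2.20 log2 units for Ctsb (SE 0.68, edgeR adjusted p = 0.0860), by 1.29 for Ctsd (SE 0.47, adjusted p = 0.128) and by 1.46 for Ctsl (SE 0.55, adjusted p = 0.137). Without Comb replicate 3 these differences were 0.79, 0.59 and 0.20.

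Upstream sequence was taken for 8 of the 10 genes from the RefSeq promoter table (build GRCm38.p6), as the 250 bases before each annotated start. Shown are the windows of the 2 genes with the greatest difference in Comb against Con, Trem2 (chr17:48346151-48346400, plus strand) and Apoe (chr7:19699189-19699438, minus strand), that of Spp1, which went the other way (chr5:104434861-104435110, plus strand), and that of the protease Ctsd (chr7:142387828-142388077, minus strand). Each is written 5′ to 3′, and capitals mark matches to the motifs described after the sequences.
Trem2: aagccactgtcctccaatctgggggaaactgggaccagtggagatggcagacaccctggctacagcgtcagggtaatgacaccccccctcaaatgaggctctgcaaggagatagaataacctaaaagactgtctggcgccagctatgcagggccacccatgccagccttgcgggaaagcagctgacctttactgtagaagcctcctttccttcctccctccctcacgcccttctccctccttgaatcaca
Apoe: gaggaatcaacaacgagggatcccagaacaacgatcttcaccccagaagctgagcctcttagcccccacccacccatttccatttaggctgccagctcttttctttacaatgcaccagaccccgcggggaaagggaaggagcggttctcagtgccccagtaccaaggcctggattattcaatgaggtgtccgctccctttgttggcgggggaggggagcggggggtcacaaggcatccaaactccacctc
Spp1: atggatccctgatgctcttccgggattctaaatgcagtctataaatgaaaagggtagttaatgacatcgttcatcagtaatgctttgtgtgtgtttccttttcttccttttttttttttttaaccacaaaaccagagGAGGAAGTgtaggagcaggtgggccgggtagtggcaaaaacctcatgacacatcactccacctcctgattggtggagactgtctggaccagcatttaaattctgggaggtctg
Ctsd: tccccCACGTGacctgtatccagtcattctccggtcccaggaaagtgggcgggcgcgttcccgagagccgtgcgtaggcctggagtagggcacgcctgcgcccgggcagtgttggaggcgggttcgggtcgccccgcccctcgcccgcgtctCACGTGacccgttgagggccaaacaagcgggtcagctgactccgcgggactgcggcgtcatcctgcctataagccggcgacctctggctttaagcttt

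The search covered 3 motifs on both strands in the 11 windows of these 8 genes. CACGTG, the palindromic letters read by the TFEB and MITF family that governs lysosomal genes, occurred at -245 and -98 from the start of Ctsd and once in the window of Ctsl, at -236, and in 6.02% of all 32851 windows of this length. GAGGAAGT, letters read by ETS factors such as PU.1 of the macrophage lineage, occurred once, at -113 of Spp1, and in 2.44% of all windows. TGACTCA, the AP-1 letters, occurred in none of the 11 windows and in 4.46% of all, and none of the 3 motifs occurred in the windows of Trem2 or Apoe. These are matches of letters only, and no binding was measured.

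With a single agent, none of the 10 genes passed adjustment. Between SFIH and Con the log2 differences ran from -0.44 for Lgals3 to 0.27 for Cd9, with 4 genes above 0 and 6 below, and a median of -0.07 against 0.02 over all genes. Between these lay Gpnmb at -0.18, Ctsl at -0.16, Fabp5 at -0.15, Spp1 at -0.10, Ctsb at -0.03, Trem2 at 0.008, Ctsd at 0.01 and Apoe at 0.14, each with an SE of 0.47 to 0.92. Leaving out 1 tumor turned the sign of all of the 10 but Lgals3 in this comparison. Between PD and Con they ran from -0.84 for Gpnmb to 1.67 for Apoe, with a median of 0.06 against 0.01, and Trem2 was 0.93 higher (SE 0.91). Fabp5 stood at 0.59, Ctsd at 0.23, Ctsb at 0.19, Ctsl at -0.07, Spp1 at -0.14, Cd9 at -0.15 and Lgals3 at -0.25. edgeR called none of the 10 in either comparison, as it called 0% of the 13464 genes tested. None of the 10 had an unadjusted p under 0.05 in edgeR with all 12 tumors, the filter on low counts and TMM scaling, against 2.25% of all genes in SFIH and 3.99% in PD. Of the 22 other fits, Apoe in PD was higher at that level in 7. These were DESeq2 with all tumors (unadjusted p = 0.0228, with 2.59% of all genes higher at that level) and without Comb replicate 3 (0.01997, with 5.18%), and edgeR without Comb replicate 3 (0.0179, with 6.14%), without Comb replicate 1 (0.00398, with 4.27%), without PD replicate 1 (0.0381, with 2.14%), without the filter (0.0388, with 2.14%) and with only the groups compared (0.00274, with 6.41%). The lowest adjusted p among these was 0.213. Trem2 in PD was higher at an unadjusted p of 0.0466 in the fit of only the groups compared, and Gpnmb was lower at 0.0370 in DESeq2 without Comb replicate 3, where 3.52% of all genes were lower. DESeq2 with all 12 tumors gave Gpnmb no p, called none of the rest of the 10, and called 0.0105% of all genes in each comparison. Apoe in PD was the 1 gene of the 10 whose tumors did not overlap those of Con, where 20.6% of all genes had such a separation in PD and 16.4% in SFIH.

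In the combined group the same 9 genes were higher, and Spp1 lower, against each of the other 3 groups in the fit of all 12 tumors with TMM scaling. Signs turned elsewhere. Under scaling by library size alone Lgals3 was lower against Con and Cd9 against SFIH, and with the replicate number as a block Lgals3 was lower against Con. Without Comb replicate 3, Lgals3 and Cd9 were lower against all 3 groups, Gpnmb was lower against Con and SFIH, and Spp1 was higher against PD (0.061) and SFIH (0.021). The median log2 difference of the 10 was 1.38 against Con, 1.71 against PD and 1.54 against SFIH, where the medians over all genes were -0.03, -0.003 and -0.05. Trem2, Apoe, Ctsb, Ctsd and Ctsl had an unadjusted p under 0.05 in all 3 comparisons, joined by Fabp5 against Con and SFIH and by Gpnmb against PD. That made 6 of 10 genes each time, where 18% of all genes were higher at that level against Con, 12.9% against PD and 14.8% against SFIH. Scaling by library size alone moved the median over all genes against Con to -0.29 and left 1596 genes higher and 1811 lower at that level, where TMM scaling gave 2423 and 983. None of the 10 passed adjustment in edgeR in any of these comparisons, and 0% of all genes did. Against PD the largest differences were 2.55 for Trem2 (SE 0.93), 2.13 for Gpnmb, 2.02 for Fabp5 (SE 0.95), 2.01 for Ctsb (SE 0.67) and 1.88 for Apoe (SE 0.78), with adjusted p between 0.243 and 0.284, and the rest were 1.53 for Ctsl, 1.05 for Ctsd, 0.65 for Cd9, 0.39 for Lgals3 and -0.44 for Spp1. Against SFIH they were 3.47 for Trem2 (SE 0.97), 3.42 for Apoe (SE 0.83), 2.75 for Fabp5 (SE 0.98), 2.23 for Ctsb (SE 0.68), 1.62 for Ctsl, 1.47 for Gpnmb and 1.27 for Ctsd, with adjusted p between 0.128 and 0.293, followed by 0.58 for Lgals3, 0.23 for Cd9 and -0.48 for Spp1. The 3 comparisons share the Comb tumors and are not independent of each other. In none of them did the Comb tumors separate fully upward for any of the 10 genes, and the only separation was Spp1 below Con, where 29.8% of all genes separated against Con, 12.7% against PD and 19.5% against SFIH.

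Single Comb libraries and the choice of model decided the calls. Without Comb replicate 3, edgeR called none of the 10, and 0.0367% of all genes against Con and 0% against PD and SFIH. The unadjusted count was then 2 genes, Apoe and Trem2, against Con and against SFIH, and 0 against PD, where 11.4%, 7.16% and 4.11% of all genes were higher in the same order, and the medians of the 10 were 0.39, 0.46 and 0.42. Without Comb replicate 1, the tumor inside the range of the non-Comb tumors for 9 of the 10 genes, edgeR called 6 of the 10 higher against Con and 6 against SFIH (Trem2, Apoe, Fabp5, Ctsb, Ctsd and Ctsl) and 7 against PD (the same with Gpnmb). It called 28.5%, 22.5% and 15.2% of all 13856 genes tested in either direction, with 2543, 2151 and 1531 genes higher, in the same order. DESeq2 on all 12 tumors called 4 of the 10 against Con, which were Apoe (adjusted p = 0.00011), Trem2 (0.00121), Ctsb (0.00882) and Fabp5 (0.0235), against a background of 13.3%. It called these 4 and Ctsl against SFIH, with 7.78% of all genes called, and none against PD, with 2.68% called. DESeq2 on all 12 tumors gave Gpnmb no p, adjusted or unadjusted, in these comparisons. With DESeq2 and without Comb replicate 3, Apoe alone remained called against Con (adjusted p = 0.0478) where 4.88% of all genes were called, and none against PD (0.129%) or SFIH (0.687%).

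**Figure D2:**
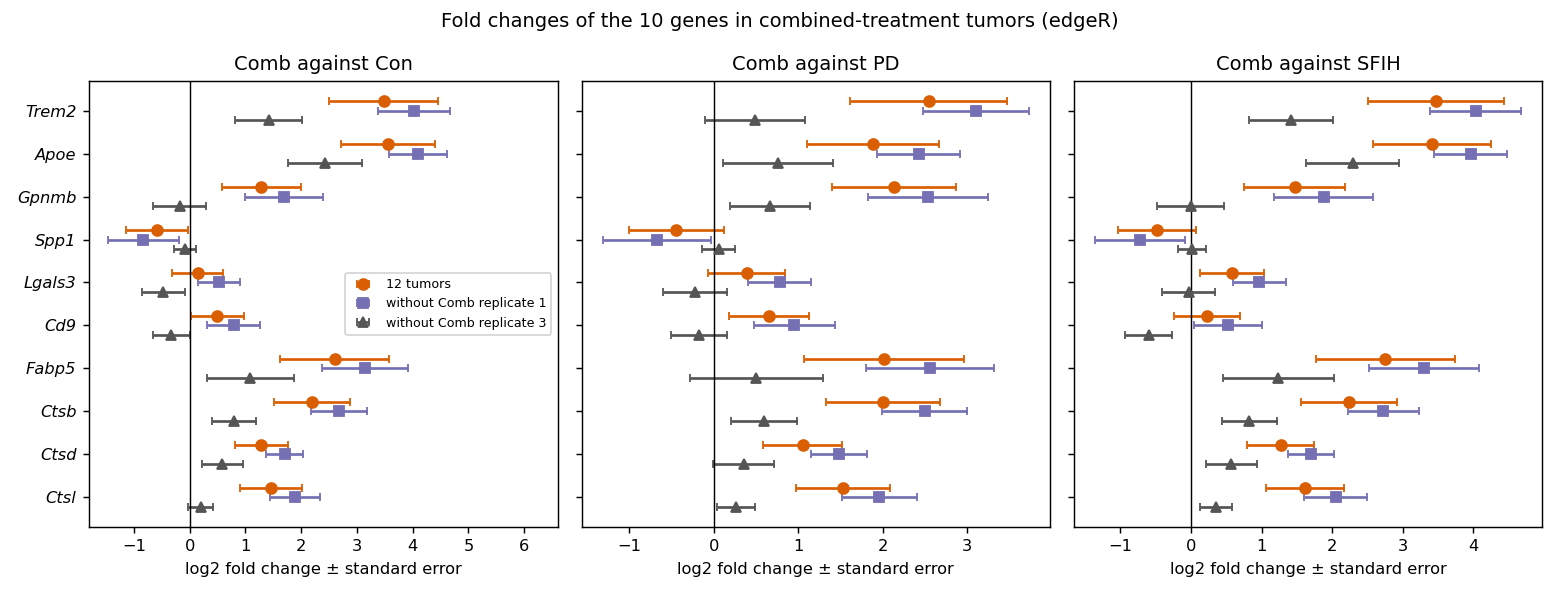
Log2 fold change with its standard error (horizontal axis) of each of the 10 genes in Comb against Con, PD and SFIH, from edgeR with all 12 tumors (circles), without Comb replicate 1 (squares) and without Comb replicate 3 (triangles). The fold changes of Apoe and Trem2 against Con stay above 0 under each, at 2.43 and 1.42 without Comb replicate 3, while those of Gpnmb, Lgals3 and Cd9 against Con go below 0 without it.

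The interaction term asked whether the step from PD to Comb exceeded the step from Con to SFIH. It was above 0 for 9 of the 10 genes, from -0.34 for Spp1 to 2.54 for Trem2 (SE 1.28), with a median of 1.72 against -0.03 over all genes. Gpnmb (2.31, SE 1.01, unadjusted p = 0.0425) and Ctsb (2.04, SE 0.93, unadjusted p = 0.04998) were under 0.05 before adjustment, where 2% of all genes were so in this direction. The others were 2.17 for Fabp5, 1.75 for Apoe, 1.69 for Ctsl, 1.04 for Ctsd, 0.83 for Lgals3 and 0.38 for Cd9. Without Comb replicate 3 the median was 0.45 and none of the 10 was under 0.05, against 0.712% of all genes, with Gpnmb at 0.85, Ctsb at 0.64, Trem2 at 0.48 and Spp1 at 0.17, while Cd9 turned from 0.38 to -0.44. Without Comb replicate 1 the median was 2.21 and 8 of the 10 were under 0.05, against 11.7% of all genes, with Trem2 at 3.11, Gpnmb at 2.73 and Ctsb at 2.54 and edgeR adjusted p from 0.238 to 0.703 over the 10. With all 12 tumors, adjusted p was 0.894 or more for all 10 in edgeR, and neither edgeR, at 0% of all genes, nor DESeq2, at 0.00526%, called any of them. Gpnmb had no p in that DESeq2 fit. No difference in response to SFIH with and without the antibody passed adjustment for these genes.

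Other macrophage transcripts were also counted in each tumor. Genes of macrophages in general, 15 in number and among them Csf1r, Adgre1, Itgam and the C1q chains, summed to 724 to 1408 CPM in Con, 1270.4 to 1541 CPM in SFIH and 1394 to 2515 CPM in PD. In Comb they summed to 1514, 4418 and 12666 CPM, highest in the tumors in which Trem2 and Apoe were highest. Of the 14 that could be tested, 13 were higher in Comb than in Con at an unadjusted p under 0.05, with a median log2 difference of 2.39, and 12 were without Comb replicate 3 (median 1.504). Over all genes the share higher at that level was 18% with Comb replicate 3 and 11.4% without it, and the share lower was 7.3% and 7.43%, which is the background for each count of higher or lower genes in Comb against Con that follows. Each gene of the 10 was therefore also set beside them, as its log2(CPM + 1) minus their mean in the same tumor.

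On that scale most transcripts were lower in Comb, where the macrophage genes themselves were higher. Of all genes tested, 95.8% had a lower mean in Comb than in Con. Spp1, Lgals3, Ctsd and Cd9 were lower beside the macrophage genes in all 3 Comb tumors than in any Con tumor, 4 of the 10 genes where 68.6% of all genes were so separated. Ctsd, for example, stood at 3.37, 3.604 and 2.90 in the Con tumors, at 2.85, 3.04 and 3.11 with SFIH, at 2.50, 2.66 and 2.78 with the antibody (PD) and at 2.41, 2.45 and 2.39 with the combination, a narrow band below every other tumor. Lgals3 stood at 4.70 ± 0.82 in Con (SD, n = 3) and 2.80 ± 0.19 in Comb, and Spp1 at 4.604 ± 0.61 in Con and at 3.86, 2.63 and -1.53 in Comb. In SFIH all 10 genes had a lower mean beside the macrophage genes than in Con, as 86.1% of all genes had. In PD 8 of the 10 were lower, as 95.9% of all genes were, and 2 were higher, Apoe by 0.74 (4.01 ± 0.44 against 3.27 ± 0.05) and Trem2 by 0.020, a sign that turned under 5 alternatives, to -0.12 at the lowest. Apoe reached 2.94, 4.58 and 4.91 in Comb. Trem2 on this scale was -2.002 ± 0.22 in Con, -2.25 ± 0.08 in SFIH, -1.98 ± 0.23 in PD and -2.94, -1.81 and -0.27 in Comb, so that Comb lay on both sides of the other groups. Its difference of Comb from Con was 0.33 with all tumors and -0.38 without Comb replicate 3. The smallest p that an exact two-sided permutation test of 3 against 3 tumors can give, 0.1, was reached by 4 of the 10 genes in Comb against Con, 6 in PD against Con, 2 in SFIH against Con, 2 in Comb against PD and 4 in Comb against SFIH, and the adjusted value over these 50 tests was 0.278. That p is reached when the tumors of both groups do not overlap, which on this scale held for 69.1%, 53.7%, 20.2%, 4.17% and 56.2% of all genes in the same order. The share of the 10 genes was thus below that of all genes in Comb against Con and against SFIH, near it in PD and SFIH against Con, and above it in Comb against PD, with 2 of the 10.

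**Figure D3:**
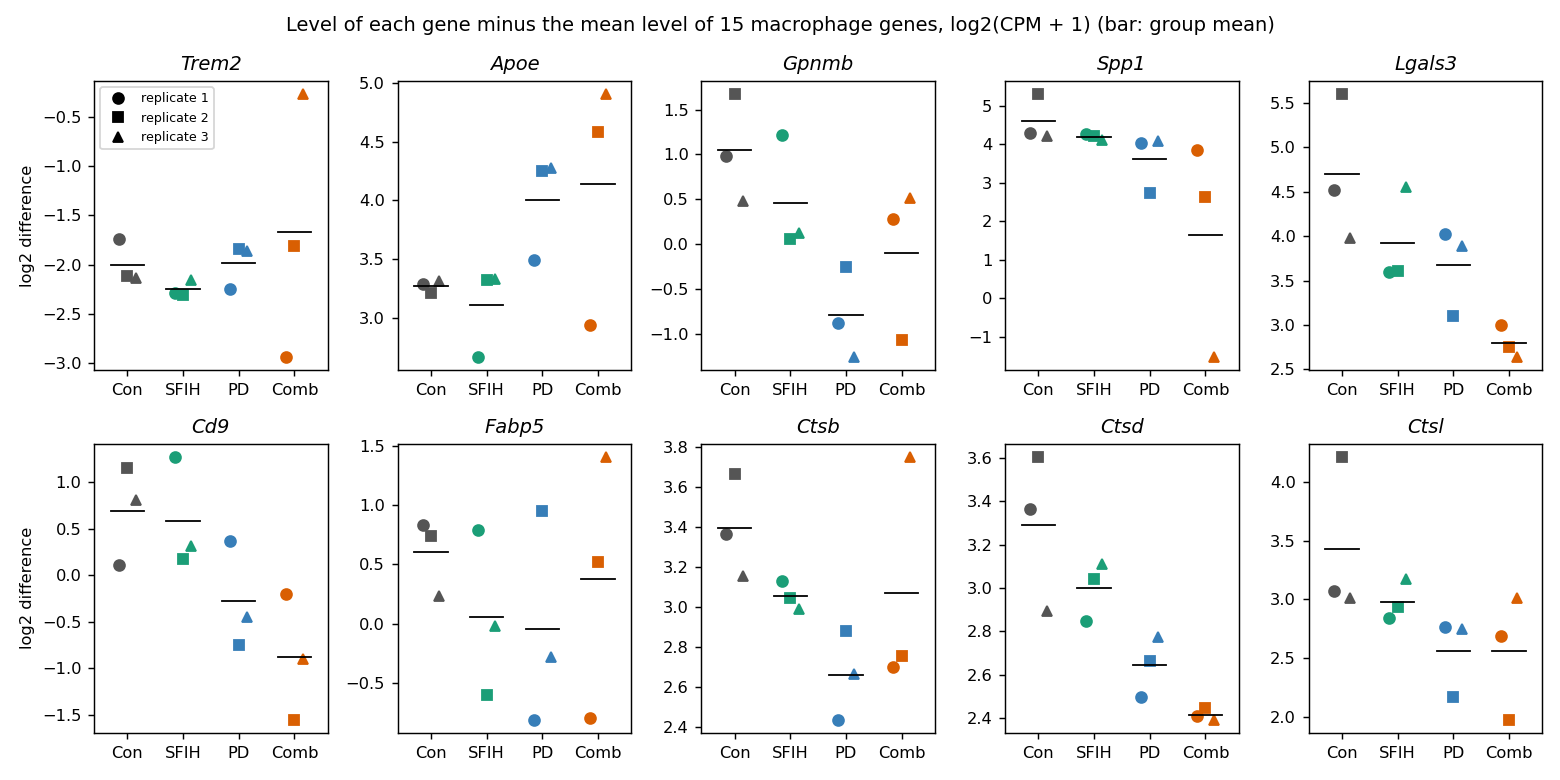
For each gene, log2(CPM + 1) minus the mean log2(CPM + 1) of 15 general macrophage genes in the same tumor (vertical axis, a log2 difference scaled separately for each gene) by group, with a symbol per replicate number and a bar at the group mean. Ctsd and Lgals3 are lowest in the 3 Comb tumors, Apoe lies higher in PD (4.01 on average) than in Con (3.27), and Spp1 reaches -1.53 in Comb replicate 3.

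The partners of Trem2 summed to 287 to 373 CPM in Con and to 346, 515 and 1459 CPM in Comb, so that Comb replicate 1 lay within the range of Con. Of these 8 adaptors, kinases and sheddases of the receptor, 5 were higher and 1 lower in Comb than in Con at an unadjusted p under 0.05, with a median log2 difference of 1.80, and without Comb replicate 3 the counts were again 5 and 1 with a median of 0.98. Tyrobp, the adaptor that carries the signal of Trem2, was at 64.9, 38.9 and 66.8 CPM in Con and 81.2, 239 and 1037 CPM in Comb (log2 difference 3.43, SE 0.80, edgeR adjusted p = 0.0665). Hcst, a second adaptor, was higher by 3.79 (SE 0.89) and the kinase Btk by 3.19 (SE 0.82). The differences of Tyrobp, Hcst and Btk were 1.72, 2.02 and 1.79 without Comb replicate 3. As with the 10 genes, none passed adjustment.

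Among 18 other genes of lipid-laden macrophages, covering lipid uptake, storage and efflux, 11 were higher and 1 lower in Comb than in Con at that level (median 1.81), and 8 were higher and none lower without Comb replicate 3 (median 0.78). Fabp4, a fatty acid binding protein of macrophages and adipocytes, was at 38.3, 35.8 and 36.7 CPM in Con and 38.6, 232 and 795 CPM in Comb (log2 difference 3.70, SE 0.84, edgeR adjusted p = 0.0665). The scavenger receptor Msr1, which takes up modified lipoproteins, was at 45.8, 28.2 and 39.6 CPM in Con and 61.5, 74.6 and 123 CPM in Comb, where even Comb replicate 1 exceeded all Con tumors (1.52, SE 0.36, adjusted p = 0.0665). Lpl, the lipase that frees fatty acids from lipoproteins, was higher in Comb than in PD by 3.22 (SE 0.82, adjusted p = 0.243). Leaving out Comb replicate 3 gave 2.11 for Fabp4, 1.02 for Msr1 and 1.22 for Lpl.

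Of 11 other cathepsins, all 9 that could be tested were higher in Comb than in Con at an unadjusted p under 0.05 (median 2.25), and 6 of the 9 were without Comb replicate 3 (median 1.21). Ctsk, a collagen-degrading cathepsin, was at 6.30, 5.62 and 5.79 CPM in Con and 5.25, 49.9 and 311 CPM in Comb (log2 difference 4.82, SE 1.17). Ctsc, the activator of granule proteases, was at 131, 95.6 and 216 CPM in Con and 221, 545 and 851 CPM in Comb (2.25, SE 0.50), and Ctsf was higher by 5.08 (SE 1.20), each with an edgeR adjusted p of 0.0665. The values for Ctsk, Ctsc and Ctsf were 2.47, 1.61 and 3.15 without Comb replicate 3. Of the inhibitors of these proteases, 3 of 4 tested were higher at the unadjusted level, among them the cystatins Cst3 (1.56, SE 0.47) and Cst7 (2.26, SE 0.86), and 1 was without Comb replicate 3, where Cst3 stood at 0.56 and Cst7 at 0.81. Among 33 lysosomal genes, 15 were higher and 1 lower against Con (median 0.58), and 7 were higher and 5 lower without Comb replicate 3 (median 0.10). The proton pump subunit Atp6v0d2 was higher against SFIH by 7.06 (SE 1.74), the progranulin gene Grn was higher against Con by 0.90 (SE 0.20), and Gaa, the acid glucosidase that degrades glycogen, was lower by 1.17 (SE 0.29). These differences became 4.66, 0.92 and -0.97 without Comb replicate 3. Grn was also above Con in SFIH alone, at 650, 472 and 537 CPM in SFIH, 604, 463 and 405 CPM in Comb and 370, 275 and 298 CPM in Con.

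Among 14 receptors of Apoe and Spp1 and tetraspanin partners of Cd9, 2 were higher and 3 lower in Comb than in Con at an unadjusted p under 0.05 (median -0.18), and 1 was higher and 2 lower without Comb replicate 3 (median -0.05). Vldlr, a receptor of Apoe, was at 78.9, 107 and 65.8 CPM in Con and 37.3, 33.9 and 9.29 CPM in Comb, all 3 below every Con tumor (log2 difference -1.44, SE 0.42, edgeR adjusted p = 0.0774). The tetraspanin Cd82 was higher by 0.94 (SE 0.26), and Lrp1, an endocytic receptor of Apoe, was higher in Comb than in SFIH by 1.15 (SE 0.37). The same differences without Comb replicate 3 were -1.08 for Vldlr, 0.75 for Cd82 and 0.53 for Lrp1.

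Markers of several other cell types stood higher in the same Comb tumors, and their part in the levels of the 10 genes was not tested. Genes of alternatively activated macrophages summed to 67.3 to 152 CPM in Con and SFIH, 122 to 673 CPM in PD and 198, 2240.05 and 43669.5 CPM in Comb. All 10 of them were higher against Con at an unadjusted p under 0.05 (median 4.68), among them Chil3 (4.79, SE 0.70, edgeR adjusted p = 0.0665), and Comb without replicate 3 still gave 8 (median 3.13), of which Chil3 passed adjustment (3.61, edgeR adjusted p = 0.0282). In Comb replicate 3, Chil3, Clec10a and Mgl2 stood at 188, 580 and 531 CPM, so most of the 43669.5 CPM came from other genes of the list. The 7 fibroblast markers summed to 2980, 10345 and 17248 CPM in Comb against 1139 to 6328 CPM in the other tumors, with none at 0 in any tumor. The 6 adipocyte markers, which include Fabp4, summed to 45.1, 389 and 953 CPM in Comb against 37.2 to 148 CPM, and 7 T cell markers to 35.1, 111 and 252 CPM against 22.2 to 102 CPM. Skeletal muscle markers summed to 718, 5.69 and 6163 CPM in Comb against 2.41 to 149 CPM, and keratinocyte markers to 5.65, 6.30 and 319 CPM against 3.68 to 31.2 CPM. Comb replicate 2, in which Apoe, Trem2, Fabp5, Ctsb and Ctsd exceeded all 9 non-Comb tumors, thus held muscle and keratinocyte markers within the range of those tumors, with 2 of 8 muscle markers at 0, whereas its fibroblast, adipocyte and T cell markers, among others, were above that range. Markers of osteoclasts, which make cathepsins and Gpnmb, summed to 21.2, 92.5 and 380.3 CPM in Comb against 17.6 to 59.5 CPM. Ctsk, counted above among the other cathepsins, gave 5.25, 49.9 and 311 CPM of the Comb sums. Acp5 gave 15.7, 40.1 and 56.8 CPM and Ocstamp 0.20, 0.61 and 0.36 CPM. Markers of melanocytes, which make Gpnmb, summed to 11.8, 20.6 and 49.4 CPM against 6.39 to 15.4 CPM. Pmel alone gave 11.7, 20.2 and 45.8 CPM of these Comb sums, and 4, 4 and 2 of the 5 markers had at most 3 reads. Neutrophil markers summed to 60.4, 100.5 and 705 CPM in Comb against 17.5 to 95.2 CPM, with 688 CPM of the sum in Comb replicate 3 from Retnlg alone and 16.9 CPM from the others, which summed to 12.8 to 92.0 CPM in the non-Comb tumors. Endothelial markers summed to 76.7, 114 and 109.6 CPM against 58.7 to 94.3 CPM. Of the markers that could be tested, those higher in Comb than in Con at an unadjusted p under 0.05 were 8 of 8 for muscle, 4 of 4 for adipocytes, 3 of 3 for keratinocytes, 7 of 7 for T cells, 5 of 7 for fibroblasts, 4 of 6 for carcinoma epithelium, 2 of 6 for neutrophils, 2 of 5 for endothelium, 1 of 3 for osteoclasts and 1 of 1 for melanocytes, with none lower. Without Comb replicate 3 the counts of higher markers were 3 for adipocytes, 0 for keratinocytes, 4 for T cells, 4 for fibroblasts and 2 for carcinoma epithelium, and those of the other types did not move.

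**Figure D4:**
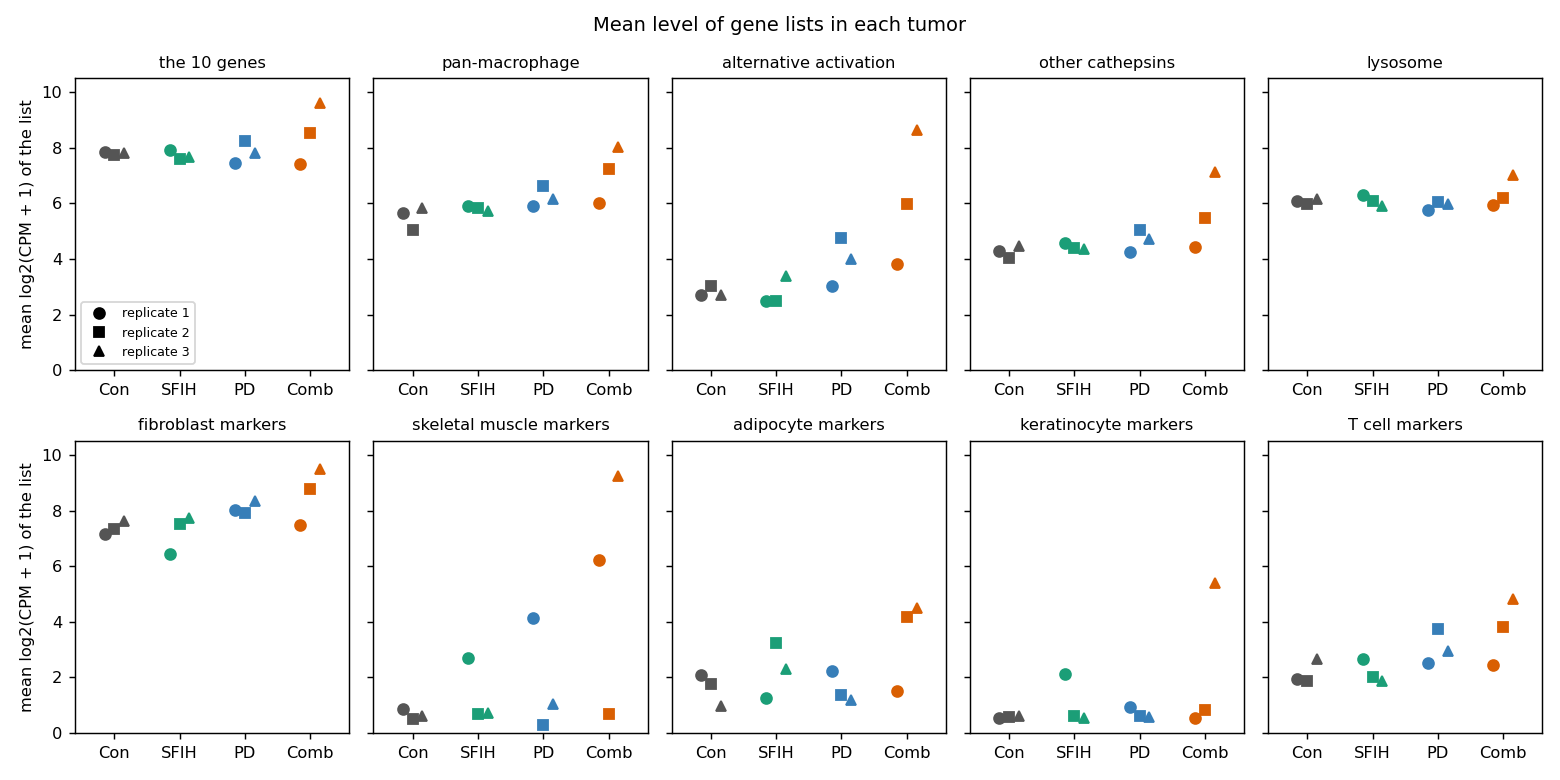
Mean log2(CPM + 1) over each gene list (vertical axis, shared by all panels) in the 12 tumors by group, with a symbol per replicate number. The 10 genes, the general and alternatively activated macrophage genes, the other cathepsins, and the fibroblast markers are highest in Comb replicate 3 and next in Comb replicate 2, while muscle markers are high in Comb replicates 1 and 3 and near the floor in Comb replicate 2.

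The 10 genes also differed in which transcripts they tracked across tumors, given here as a description over tumors that share groups and libraries. Over 12 tumors, 36 of the 45 pairs among the 10 genes had a positive Pearson r of TMM-scaled log2(CPM + 1), with a median of 0.66 and a range of -0.91 to 0.97. Over the 11 tumors without Comb replicate 3, 30 of 45 were positive with a median of 0.27. Over 12 tumors Trem2 was closest to Cd84, a receptor of leukocytes (r = 0.99), Gpsm3 and Tnfsfm13, and over 11 to Cd84 (0.98), Csrp1 and Abca1, a cholesterol exporter. Apoe was closest to Trf, which encodes transferrin, Gsdmd, which encodes gasdermin D, and Igfbp7 (0.99 each), and over 11 to Gsdmd, C1qtnf1 and Arl4c. Fabp5 was nearest to Id2 (0.98), Arhgef3 and Lax1 over 12 tumors, and over 11 Gstt2 came first and Id2 second, both at 0.96, before Arhgef3. For Gpnmb the nearest were Pianp (0.95), Oxr1 and Mrpl36, and over 11 Stx3 (0.90), Mrpl36 and Stard5. For Cd9 they included BC100451 (0.91) and Zkscan3, and over 11 Rnf4 (0.85), Sik1 and Bbs2. For Lgals3 they were Epb4.1l4aos (0.91), Eef1b2 and Mdp1, and over 11 Zfp781 (0.91), Cox7a2l and Ccdc50. Spp1 was nearest to Mtap, Ska1 and Rfc3 (0.99 each), of which Ska1 acts in chromosome segregation and Rfc3 in DNA replication, and over 11 tumors to Exd2, Tfg and Ccdc74a (0.89 each). Ctsb was closest to Hexa, a lysosomal hexosaminidase (0.99), Itm2b and Cd68, the macrophage lysosomal protein, and over 11 to Hexa (0.98), Gstt2 and the proton pump subunit Atp6v0d2. Ctsd was closest to Gtpbp10 (0.98), Olfml1 and Lmod1, and over 11 to H2afy2 (0.97), Pla2r1 and Olfml1. The nearest genes of Ctsl included Gabarapl1 and Hist1h2bc (0.98 each), and over 11 they were Lbh (0.94), Clk1 and Lrrn3. At least 1 of the 3 nearest genes was the same over 12 and 11 tumors for Trem2, Apoe, Fabp5, Gpnmb, Ctsb and Ctsd, and none was for Cd9, Lgals3, Spp1 and Ctsl.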

How the data were processed

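Libraries were made by the authors with a QuantSeq kit, in which reads come from the 3′ ends of polyadenylated transcripts, and sequenced to single-end reads of 75 bases. The deposited table holds raw read counts per gene symbol, and the aligner, the counting tool and the genome build are not given in the sources used here. Counts from a 3′ tag measure whole genes, not isoforms, and were not compared between genes. The 10 genes and all lists were chosen with earlier results of these data known.

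Counts were tested with edgeR 4.0.16 (R 4.3.3), using filterByExpr, TMM scaling, a coefficient for each of the 4 groups over all 12 tumors, the quasi-likelihood test (two-sided) and Benjamini-Hochberg adjustment over the 13464 genes tested, at a threshold of 0.05. All 10 genes passed the filter. DESeq2 1.42.0, other scalings and filters, a replicate block, fits of only the groups compared and fits without each tumor were alternatives; a robust edgeR fit and DESeq2 without Comb replicate 3 were added after seeing the data. The scripts were tested on simulated data. CPM was computed on unscaled totals, and log2(CPM + 1) used a pseudocount of 1.

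All 10 genes are named in every comparison. From each other list, named genes were up to 3 with the smallest unadjusted p over the 6 comparisons, since none had an adjusted p under 0.05, and for each of the 10 the 3 genes of highest Pearson r, of which 2 are not reported here. The labels number the tumors 1 to 3 in each group but do not say that each came from its own animal, so p-values measure the spread between these tumors. No 2 tumors of a group agreed within sampling noise.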

Additional observations from a re-analysis of the deposited data

How the results depend on the processing

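Across the alternatives, the count of called genes among the 10 moved in 3 comparisons. Leaving out 1 tumor at a time gave 0 to 6 called genes in Comb against Con, 0 to 7 in Comb against PD and 0 to 6 in Comb against SFIH, the highest count each time without Comb replicate 1. DESeq2 gave 4 in Comb against Con and 5 in Comb against SFIH, and DESeq2 without Comb replicate 3, chosen after seeing the data, gave 1 in Comb against Con. Of 60 fold changes, 28 changed sign under some alternative, in 52 of 1310 alternative values. Leaving out 1 tumor at a time, the log2 fold change of SFIH against Con ran from -0.25 to 0.26 for Trem2, -0.077 to 0.31 for Apoe, -0.69 to 0.028 for Gpnmb, -0.18 to 0.035 for Spp1, -0.18 to 0.47 for Cd9, -0.63 to 0.13 for Fabp5, -0.12 to 0.037 for Ctsb, -0.064 to 0.15 for Ctsd and -0.27 to 0.035 for Ctsl. That of PD against Con ran from -0.32 to 0.028 for Spp1, -0.46 to 0.0036 for Lgals3, -0.34 to 0.043 for Cd9, -0.57 to 0.996 for Fabp5, -0.26 to 0.44 for Ctsb, -0.068 to 0.45 for Ctsd and -0.17 to 0.12 for Ctsl. In Comb against Con it ran from -0.18 to 1.69 for Gpnmb, from -0.47 to 0.53 for Lgals3 and from -0.32 to 0.79 for Cd9. Against PD it ran from -0.87 to 0.061 for Spp1, from -0.22 to 0.78 for Lgals3 and from -0.17 to 0.96 for Cd9. Against SFIH it ran from -0.0015 to 1.98 for Gpnmb, from -0.91 to 0.021 for Spp1, from -0.032 to 0.97 for Lgals3 and from -0.60 to 0.68 for Cd9, and the interaction ran from -0.76 to 0.17 for Spp1 and from -0.44 to 0.85 for Cd9. With DESeq2 and without Comb replicate 3, the values against Con were -0.16 for Gpnmb, -0.45 for Lgals3 and -0.31 for Cd9, those against PD 0.076 for Spp1, -0.20 for Lgals3 and -0.15 for Cd9, those against SFIH 0.040 for Spp1, -0.0093 for Lgals3 and -0.58 for Cd9, and the interaction was 0.18 for Spp1 and -0.42 for Cd9. Fitting only the groups compared gave -0.0057 for Trem2 in SFIH against Con, and scaling by library size alone gave -0.20 for Lgals3 against Con and -0.15 for Cd9 against SFIH. The cause of these changes was not tested.

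With the replicate number as a block (replicate block), 0 of the 10 genes were called in each of the 6 comparisons, and 3 of 60 fold changes turned in sign, Lgals3 in Comb against Con (-0.039) and, in SFIH against Con, Trem2 (-0.036) and Ctsd (-0.042). Same-numbered tumors of different groups deviated from their group means with correlations of -0.29 to 0.41 over 18 pairs, of which 6 exceeded 0.1, so the numbers were not taken to pair tumors. Beside the general macrophage genes, 13 of the 32 differences whose groups overlapped turned in 33 of 288 alternative values, 10 of them in comparisons of Comb, where Trem2 against Con was -0.38 without Comb replicate 3 and -0.27 beside Adgre1 and Csf1r alone. The lowest count of any of the 10 genes was 63 reads, and how far depth limits these values was not tested. The common dispersion was 0.158 with Comb replicate 3 and 0.0682 without it.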
